A study of Mus musculus with 5 samples.

Results

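Transcripts of 10 genes that move or buffer calcium and magnesium in the distal nephron were followed in whole mouse kidneys. The genes, taken by symbol from a deposited expression table of 23997 rows, were Trpv5, Calb1, S100g, Slc8a1, Atp2b1, Atp2b4, Trpm6, Trpm7, Cnnm2 and Pvalb. All 10 were present, and all 10 passed the filter on low values, a mean FPKM of 1 or more over the 5 libraries. The study compared 2 libraries labelled Pkd1 knockout (SKO in the titles, PkdTKO in the design text) with 3 libraries labelled as uninduced controls, all from kidneys of mice aged 8 weeks, to ask how metalloproteinases take part in basement membrane remodelling and cystic widening of tubules. Pkd1 encodes polycystin-1, and its loss causes cystic kidneys. The names SKO and PkdTKO, the inducing agent, the promoter that drives the deletion, the deleted exons, the sex of the mice and whether each library came from 1 animal are not stated in the labels. The p-values therefore measure the spread between these libraries alone, which may be technical. Values are the deposited FPKM, the authors' fragment numbers divided by transcript length in kilobases and by the mapped fragments of each library.

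The distal convoluted tubule and the connecting tubule set the final calcium and magnesium content of urine. Calcium enters their cells through the apical channel TRPV5, is carried across the cytoplasm by calbindins, and leaves on the blood side through the sodium-calcium exchanger NCX1 and plasma membrane calcium pumps. Magnesium enters the early distal convoluted tubule through the channel kinase TRPM6, and CNNM2 lies in the basolateral membrane of these cells. Parathyroid hormone and active vitamin D are known to raise the calcium transporters.

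The libraries differed in more than their labels. The FPKM of Pkd1 were 2.72 and 3.60 in knockout 0 and 1, against 3.22, 3.51 and 3.49 in the controls, so the targeted gene as a whole was not detectably lower (limma adjusted p = 0.646). A whole-gene value can miss the deletion of an exon. The Y-linked gene Ddx3y was at 7.30 and 0.00194 FPKM in knockout 0 and 1, against 17.8 to 18.6 in the controls, and Xist, which silences an X chromosome in females, was at 30.8 and 80.3 FPKM, against 0.0222 to 0.0275. Knockout 0 thus held both Xist and Y-linked RNA. Its Ddx3y was at 40.2% of the control mean, and the Y-linked Uty, Eif2s3y and Kdm5d at 41.3%, 36.7% and 38.2%. How knockout 0 came to hold both was not tested. Sex of the RNA and label cannot be told apart here. The tubule injury marker Havcr1 was at 137.4 FPKM in knockout 0 and 0.593 in knockout 1, against 0.718 to 1.12 in the controls, so the pair of knockout libraries was not alike.

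Calb1 was the 1 member that passed the test, and it fell. It was 1 of 10 members, with 0 members higher, where 3.62% of all 12640 tested rows were called lower and 2.73% higher, 6.34% in all (limma, Benjamini-Hochberg adjusted p under 0.05). In 4 members, Calb1, S100g, Slc8a1 and Pvalb, both knockout libraries lay below every control, against 26.3% of all tested rows. In 1 member, Atp2b1, both lay above every control, against 21.9% of all tested rows. The other 5 overlapped. The median log2 fold change was -0.21 over the members and -0.016 over all tested rows. All calls split into 345 higher and 457 lower, or into 454 higher and 266 lower after rescaling each library to a common sum (TPM), and Calb1 was called lower in both. In whole kidneys fewer cells of a type and less RNA per cell cannot be told apart.

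**Figure D1:**
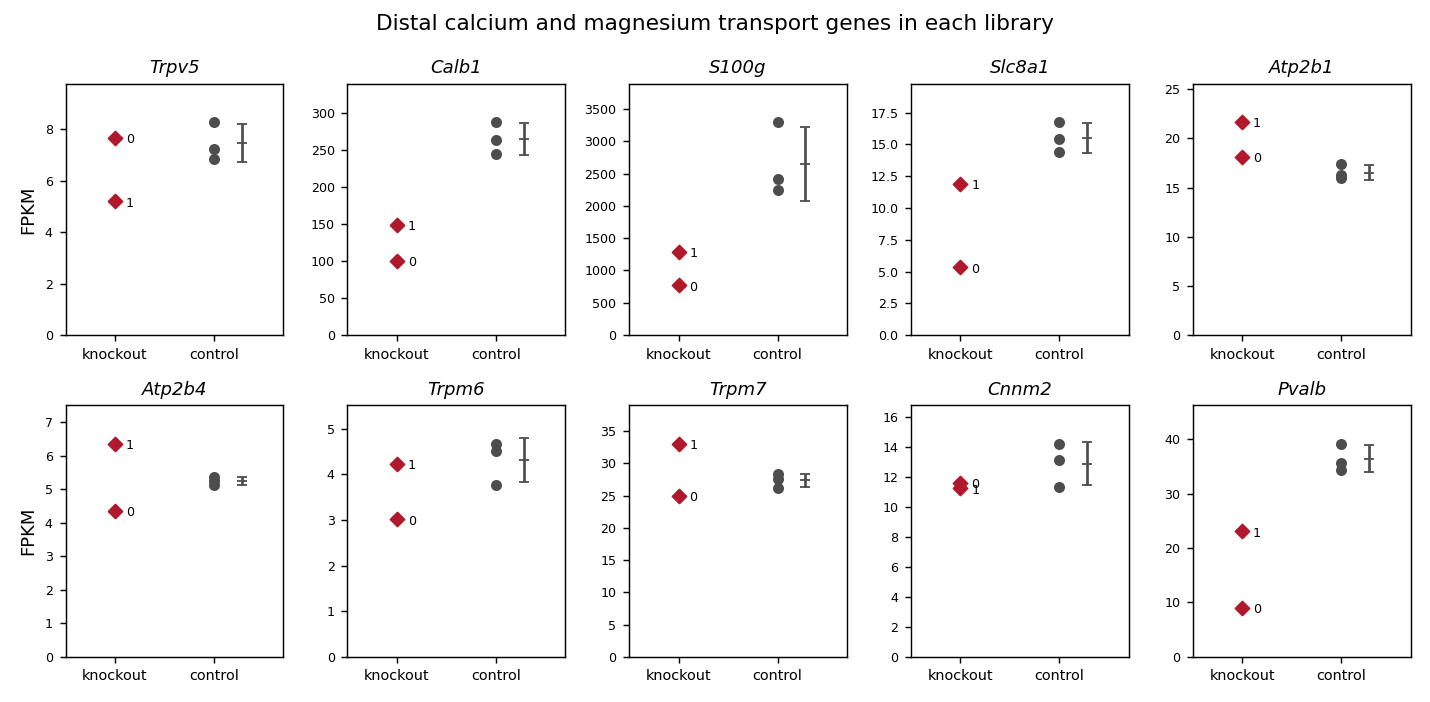
FPKM of the 10 genes (vertical axes from 0, a scale of its own in each panel) in the knockout libraries (diamonds, marked 0 and 1) and in the control libraries (circles), with the control mean and SD as a bar. Both diamonds lie below every circle for Calb1, S100g, Slc8a1 and Pvalb, and above every circle for Atp2b1.

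The calbindins, which bind calcium in the cytoplasm, were the most abundant members and both were far lower in the knockout libraries. Calb1 encodes calbindin-D28k and marks the late distal convoluted and connecting tubules. It had an FPKM of 100.5 and 148.8 in knockout 0 and 1, against 263.7, 288.1 and 244.9 in control 0, 1 and 2. The knockout libraries were thus at 37.9% and 56.0% of the control mean of 265.6 ± 21.7 FPKM (SD, n = 3). On the log2(FPKM + 1) scale it fell by 1.11 (95% interval of the difference -1.57 to -0.65, SE 0.182), with a limma adjusted p of 0.0362. The log2 difference of Calb1 from the controls was -1.39 in knockout 0 alone and -0.83 in knockout 1 alone. Calb1 did not pass without control 0, 1 or 2 (limma adjusted p = 0.152, 0.104 and 0.170), with log2 fold changes between -1.17 and -1.05. Nor did it pass with no filter on low values (0.0665), after quantile normalization (0.0673) or with the replicate number as a block (0.186).

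S100g encodes calbindin-D9k, the small vitamin D dependent calbindin. Its FPKM was 768 and 1293 in knockout 0 and 1, against 2238, 3297 and 2412 in control 0, 1 and 2. The knockout libraries stood at 29.0% and 48.8% of the control mean, and the controls themselves varied by a coefficient of variation of 21.4%, the widest of the 10 members. With a limma adjusted p of 0.0511 S100g narrowly missed the threshold, at a log2 difference of -1.39 (95% interval -2.09 to -0.69, SE 0.279). It passed with rows listed at 0 left out (0.0474), at a mean FPKM of at least 5 (0.0409), with median-of-ratios scaling (0.0486) and with a pseudocount of 0.1 (0.0484). Without control 0, 1 or 2 it did not pass (limma adjusted p = 0.160, 0.124 and 0.205). It also missed with no filter on low values (0.126), after rescaling to TPM (0.0637) or quantile normalization (0.0651) and with the replicate block (0.153). With no variance trend (0.0525) or robust variances (0.0513) it narrowly missed. The log2 difference of S100g was -1.76 in knockout 0 alone and -1.01 in knockout 1 alone. S100g lies on chromosome X (mm10, 162961992 to 162964599, minus strand), whereas Calb1 lies on chromosome 4 (15881264 to 15908064, plus strand).

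Slc8a1 and Pvalb shared the direction of the calbindins, more deeply in knockout 0 than in knockout 1. Slc8a1 encodes NCX1, the basolateral sodium-calcium exchanger, which is also abundant in heart and other muscle. Its FPKM was 5.32 and 11.9 in knockout 0 and 1, against 14.4, 16.8 and 15.4 in the controls. The knockout values were 34.3% and 76.6% of the control mean, which gave a limma adjusted p of 0.132 and a log2 difference of -0.87 (95% interval -1.61 to -0.13, SE 0.296). The log2 difference of Slc8a1 was -1.38 in knockout 0 alone and -0.35 in knockout 1 alone. Knockout 0 and knockout 1 were not tested against each other. Exons of Slc8a1 overlap 2 genes annotated on the opposite strand, and whether the counting used strand is not stated.

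Pvalb encodes parvalbumin, a cytoplasmic calcium buffer of fast muscle and some neurons that in the mouse kidney marks the early distal convoluted tubule. Its FPKM was 8.98 and 23.1 in knockout 0 and 1, against 34.4, 39.2 and 35.6 in the controls. The knockout values were 24.7% and 63.5% of the control mean, with no overlap. Both libraries together gave a log2 difference of -1.27 (95% interval -2.17 to -0.36, SE 0.361) and a limma adjusted p of 0.0969, which missed the threshold. Against the same controls the log2 difference was -1.90 in knockout 0 alone and -0.63 in knockout 1 alone. Skeletal muscle markers, a possible other source of parvalbumin, summed to 1.68 and 1.41 FPKM in knockout 0 and 1, against 1.37 to 1.60 in the controls, over the 3 of 6 listed genes never at 0. Most of that sum was Mylpf (1.42 and 1.36 FPKM, both inside the range of the controls). The others were low and did not move alike. Acta1 was at 0.231 and 0.0232 FPKM, against 0.0329 to 0.0523. Myh1, a myosin heavy chain, was at 0.318 and 0.272 FPKM, against at most 0.00397 in the controls. Tnnt3 lay below every control, at 0.0242 and 0.0316 FPKM, against 0.0522 to 0.0761. Ckm was at 0 and 0.0105 FPKM, against 0.00924 to 0.0508, and Myh4 was at most 0.00174 FPKM in any library. The part of these traces in the level of Pvalb was not tested.

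The sequences just upstream of the members that lay below every control are shown so that the windows of genes that moved together can be set side by side. The 250 bases before the RefSeq start are given 5′ to 3′ on the gene's strand, build GRCm38.p6 (mm10), for S100g (chrX:162964600-162964849, minus), Slc8a1 (chr17:81738388-81738637, minus) and the upstream start of Pvalb (chr15:78206401-78206650, minus). The table of promoters held 9 of the 10 members, and Calb1 was not among them. Capitals mark the nuclear receptor half-site AGGTCA, searched on both strands.
S100g: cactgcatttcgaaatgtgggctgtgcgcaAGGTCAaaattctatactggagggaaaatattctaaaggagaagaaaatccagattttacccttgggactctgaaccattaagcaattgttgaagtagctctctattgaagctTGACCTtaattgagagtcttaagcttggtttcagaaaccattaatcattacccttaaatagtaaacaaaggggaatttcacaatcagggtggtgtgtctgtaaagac
Slc8a1: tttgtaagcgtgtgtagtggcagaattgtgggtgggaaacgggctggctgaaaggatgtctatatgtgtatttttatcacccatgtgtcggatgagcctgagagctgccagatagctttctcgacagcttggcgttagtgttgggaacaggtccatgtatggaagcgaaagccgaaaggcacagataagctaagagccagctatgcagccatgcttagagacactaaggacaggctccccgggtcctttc
Pvalb: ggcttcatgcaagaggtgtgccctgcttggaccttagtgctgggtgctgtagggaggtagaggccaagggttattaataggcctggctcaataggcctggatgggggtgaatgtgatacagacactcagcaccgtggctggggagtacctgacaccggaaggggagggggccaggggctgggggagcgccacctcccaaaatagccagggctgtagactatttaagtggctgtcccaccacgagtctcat
S100g held 2 half-sites, AGGTCA starting 220 bases before the start and its reverse complement TGACCT starting 107 bases before it, and the other pair of windows held 0. The half-site occurs in 14.0% of all 32851 promoter windows of this length. The TATA box TATAAA, also searched on both strands and found in 12.4% of windows, was in none of the 3 sequences. The GC content was 38.4%, 50.4% and 58.4% for S100g, Slc8a1 and Pvalb, so the 3 windows were also unlike in base composition. A match or its lack describes these letters only.

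Trpv5, the apical channel through which calcium enters, did not follow the calbindins. Its FPKM was 7.67 and 5.21 in knockout 0 and 1, against 7.25, 8.29 and 6.85 in the controls, so knockout 0 lay among the controls and knockout 1 below them. With both libraries the log2 difference was -0.20 (95% interval -0.61 to 0.20, limma adjusted p = 0.453), and it was 0.038 in knockout 0 alone and -0.44 in knockout 1 alone, opposite signs. Trpv5 was the 1 member of the calcium path with a lower level in knockout 1 than in knockout 0, a pattern opposite to that of Calb1, S100g, Slc8a1 and Pvalb.

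Neither gene of the plasma membrane calcium pumps passed. Atp2b1 encodes PMCA1, a pump found in most tissues, and had an FPKM of 18.1 and 21.7 in knockout 0 and 1, against 15.9, 16.2 and 17.4 in the controls. Both knockout values lay above every control, by a log2 difference of 0.25 (SE 0.0968, 95% interval 0.0062 to 0.49), which did not pass (limma adjusted p = 0.164). Atp2b4, which encodes PMCA4, was at 4.35 and 6.36 FPKM in knockout 0 and 1, against 5.23, 5.13 and 5.37 in the controls. The controls lay within a coefficient of variation of 2.31%, and the knockout libraries lay on either side of them, so that the log2 fold change was 0.0079 (95% interval -0.35 to 0.37, limma adjusted p = 0.978). The sign of that fold change turned after quantile normalization and when knockout 1 or control 1 was left out.

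Of the magnesium genes none passed. Trpm6, the magnesium channel of the distal convoluted tubule, was the least abundant member, with an FPKM of 3.02 and 4.23 in knockout 0 and 1, against 4.67, 3.76 and 4.51 in the controls. Knockout 0 lay below every control and knockout 1 among them (log2 fold change -0.21, 95% interval -0.58 to 0.16, limma adjusted p = 0.392). Trpm7, the widely expressed relative of Trpm6, was at 25.0 and 33.0 FPKM in knockout 0 and 1, against 28.3, 27.5 and 26.2 in the controls, with the knockout libraries on either side (log2 0.070, 95% interval -0.25 to 0.39, limma adjusted p = 0.754). Cnnm2 was at 11.6 and 11.2 FPKM, against 14.2, 11.3 and 13.1, with knockout 0 among the controls and knockout 1 just below them (log2 -0.16, 95% interval -0.42 to 0.11, limma adjusted p = 0.373). The 95% intervals of all 3 reach above and below 0.

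**Figure D2:**
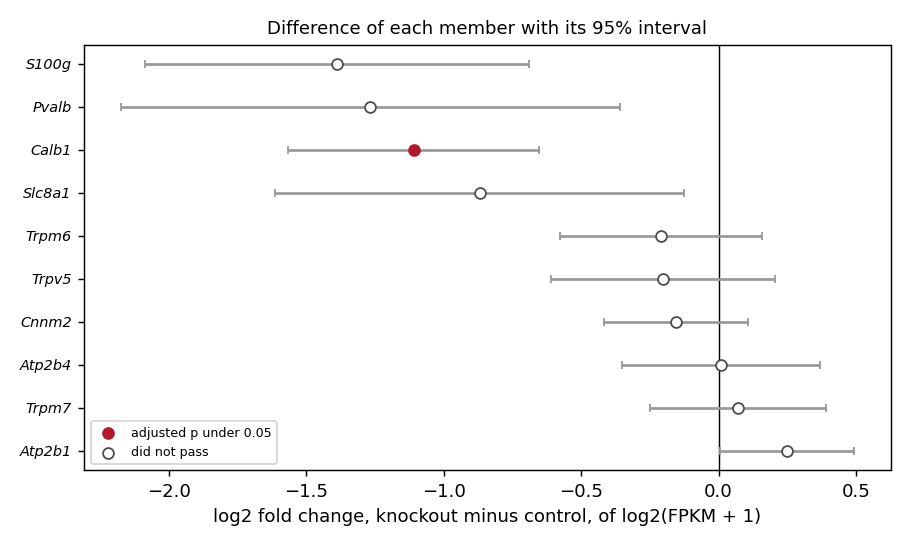
Log2 fold change of log2(FPKM + 1), knockout minus control, for each of the 10 genes (horizontal axis) with its 95% interval from limma; the filled point passed at an adjusted p under 0.05. Calb1 is the filled point at -1.11, S100g and Pvalb lie lower with wider intervals, and 6 genes lie between -0.21 and 0.25.

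Ordered by control mean in FPKM, a value per transcript length, the members ran from S100g (2649), Calb1 (265.6) and Pvalb (36.4) through Trpm7 (27.3), Atp2b1 (16.5), Slc8a1 (15.5) and Cnnm2 (12.9) to Trpv5 (7.46), Atp2b4 (5.24) and Trpm6 (4.31). Among neighbours in this order the ranges of the 3 controls overlapped between Atp2b1 and Slc8a1, and for no other pair. The calbindins stood above every channel and pump, and Trpv5 stood above Trpm6 in each of the 5 libraries. In 8 of the 10 members knockout 0 lay below knockout 1, as it did in 51.9% of all tested rows. Knockout 0 lay below every control in 7 members and knockout 1 in 6, against 43.9% and 38.5% of all tested rows, and above every control in 1 and 3, against 34.2% and 38.4%.

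Markers of the distal convoluted tubule were low in knockout 0, like the calbindins, and mostly high in knockout 1, unlike them. Slc12a3, the thiazide-sensitive sodium chloride cotransporter that defines this segment, was at 123.6 and 224.9 FPKM in knockout 0 and 1, against 166.4, 148.9 and 173.1 in the controls (log2 fold change 0.037, limma adjusted p = 0.942). The 6 listed markers of the segment, which include the kinase gene Wnk4, summed to 206.4 FPKM in knockout 0 and 355.1 in knockout 1, against 257.7 to 293.0 in the controls. All 6 lay below every control in knockout 0, and 5 lay above every control in knockout 1, against 43.9% and 38.4% of all tested rows. The 8 markers of connecting tubule and principal cells, among them the water channel genes Aqp2 and Aqp3, summed to 615.3 and 769.5 FPKM, against 691.4 to 807.6. In knockout 0, 6 lay below every control and 0 above, against 43.9% and 34.2% of all tested rows. In knockout 1, 3 lay below and 2 above, against 38.5% and 38.4%. Of these 8, Fxyd4, named after its values were seen, was the 1 that passed, against 3.62% of all tested rows called lower. Fxyd4 had 77.6 and 74.2 FPKM, against 96.6 to 97.1 (limma adjusted p = 0.0470). Without control 0, 1 or 2 its adjusted p was 0.175, 0.122 and 0.219, and it also missed the threshold after rescaling to TPM (0.0755), median-of-ratios scaling (0.0553) or quantile normalization (0.0828), with the replicate block (0.315) and, narrowly, with no variance trend.

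Ratios to another gene in the same library remove any scaling of the library as a whole, and depend on how that gene moved. Slc12a3 itself lay below every control in knockout 0 and above every control in knockout 1. The ratio of Calb1 to Slc12a3 FPKM was 0.814 and 0.662 in knockout 0 and 1, against 1.59, 1.94 and 1.41 in the controls. The ratio of S100g to Slc12a3 was 6.21 and 5.75, against 13.5, 22.1 and 13.9, that of Slc8a1 was 0.0431 and 0.0529, against 0.0867, 0.113 and 0.0889, and that of Pvalb was 0.0727 and 0.103, against 0.207, 0.263 and 0.206. Trpm6 was the fifth member below every control on this measure, at 0.0244 and 0.0188, against 0.0281, 0.0253 and 0.0260, and by a small margin in knockout 0. Relative to Scnn1g, a sodium channel subunit of the connecting tubule and collecting duct whose own level differed little (21.4 and 25.1 FPKM, against 22.2 to 24.8), Calb1, S100g, Slc8a1 and Pvalb were again below every control and Trpm6 was not. Relative to Atp6v1g3, a proton pump subunit of intercalated cells that was itself low in both knockout libraries (19.4 and 27.8 FPKM, against 35.9, 45.8 and 35.9), the differences of these 4 genes were smaller than relative to Slc12a3. Calb1 was then at 75.8% and 78.6% of the control mean ratio in knockout 0 and 1, S100g at 58.8% and 69.3%, and Pvalb at 49.4% and 89.0%, each below every control. Slc8a1, at 68.6% and 107.4%, then overlapped the controls, and 5 members lay above every control. Dividing by a gene that is low in both knockout libraries raises every knockout ratio, so that count does not describe the members alone. The 3 denominators were chosen after the values were seen, and no test was made of the ratios. How many of all tested rows lie outside the controls on these ratios was not computed.

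**Figure D3:**
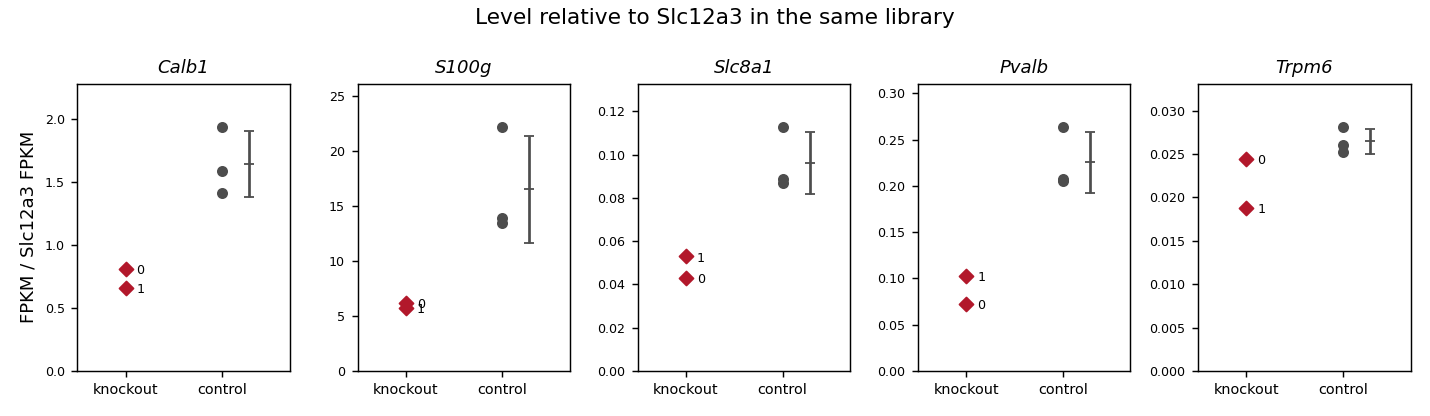
FPKM of 5 genes divided by the FPKM of Slc12a3 in the same library (vertical axes from 0) for the knockout libraries (diamonds, marked 0 and 1) and the controls (circles), with the control mean and SD as a bar. For Calb1 and S100g both knockout ratios lie at 34.8% to 49.5% of the control mean, and for Trpm6 at 92.3% and 71.1%.

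Other marker lists were measured beside these genes. In the intercalated cell, macrophage and tubule injury lists 0 genes passed over both knockout libraries by limma, against 6.34% of all tested rows. At an unadjusted p under 0.05, 4 intercalated cell genes were lower, and 2 macrophage and 1 injury genes higher. At that p 1578 of all 12640 tested rows were higher and 2102 lower. Genes of intercalated cells, the acid-base cells that lie among the connecting tubule and collecting duct cells, summed to 79.9 and 128.7 FPKM in knockout 0 and 1, against 152.5 to 178.2 in the controls. All 6 lay below every control in knockout 0 and 4 of 6 in knockout 1, against 43.9% and 38.5% of all tested rows. The lowest adjusted p was that of Atp6v1g3 (limma, 0.0811). Macrophage markers summed to 311.3 and 108.3 FPKM, against 72.9 to 82.9. All 5 listed genes in the table lay above every control in both libraries, as did 21.9% of all tested rows. Tubule injury markers summed to 305.3 and 11.7 FPKM, against 8.87 to 11.6, so that they were high in knockout 0 and just above the highest control in knockout 1. Within that sum Vcam1 was at 24.2 and 5.42 FPKM, against 2.90 to 3.04, and Krt20 at 11.5 and 0.808, against 0.295 to 0.725. Both lay above every control in knockout 1 too, whereas Havcr1 lay below every control there. Lcn2 was at 132.2 and 4.87 FPKM, against 4.76 to 6.86, and so lay among the controls in knockout 1. The part of these differences in the levels of Calb1, S100g, Slc8a1 and Pvalb was not tested.

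The hormonal and vitamin D genes that act on calcium transport changed in 2 of 14 tested cases. Of the 19 other calcium genes listed, 5 were too low to test, 1 rose, 1 fell and 12 did not pass. Their median log2 fold change was 0.22. Over all tested rows 2.73% were called higher and 3.62% lower. Cyp27b1, the kidney enzyme that makes active vitamin D, rose to 5.50 and 4.60 FPKM in knockout 0 and 1, against 1.77, 2.27 and 1.88 in the controls (log2 1.02, SE 0.118, limma adjusted p = 0.0198). Pth1r, the parathyroid hormone receptor, fell to 221.0 and 191.6 FPKM, against 353.7, 299.1 and 318.6 (log2 -0.65, SE 0.113, limma adjusted p = 0.0394). Most kidney Pth1r and Cyp27b1 RNA is known to come from the proximal tubule, so these whole-kidney levels say little about the distal cells. With control 0, 1 or 2 left out the limma adjusted p of Pth1r was 0.151, 0.0910 and 0.192. That of Cyp27b1 was 0.120 and 0.151 with control 0 or 2 left out, and it narrowly passed with control 1 left out. The vitamin D receptor Vdr was at 62.0 and 66.8 FPKM, against 63.8 to 81.6, and Cyp24a1, which breaks active vitamin D down, at 25.6 and 55.5, against 4.63 to 25.6, without passing (adjusted p = 0.355 and 0.281 by limma). Klotho, Kl, a cofactor of the distal tubule, was at 139.7 and 174.9 FPKM, against 213.6 to 229.7, below every control, and did not pass (limma adjusted p = 0.0643). Vdr, Cyp24a1 and Kl were named after their values were seen.

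Of the 21 other magnesium genes listed, 20 were tested and 0 passed by limma, against 6.34% of all tested rows. At an unadjusted p under 0.05, 4 were higher and 2 lower, against 1578 higher and 2102 lower of all 12640 tested rows. Their median log2 fold change was -0.072. The lowest adjusted p was that of Kcnj16, a basolateral potassium channel subunit, at 218.9 and 223.5 FPKM in knockout 0 and 1, against 170.9 to 180.8 in the controls (limma adjusted p = 0.0604). Kcnj16 was called higher after rescaling to TPM (adjusted p = 0.0482) and after quantile normalization (0.0378). Slc41a1, a magnesium transporter, was at 7.30 and 6.35 FPKM, against 5.27 to 5.47, and Cnnm4, a relative of Cnnm2, at 6.61 and 8.57, against 5.06 to 5.87 (adjusted p = 0.0898 and 0.103 by limma). All 3 lay above every control in both knockout libraries. Of the 20 tested, 6 lay above and 4 below every control in both, against 21.9% and 26.3% of all tested rows. Egf, whose product raises TRPM6 activity, was at 85.3 and 175.9 FPKM, against 280.2, 167.3 and 235.5, with knockout 1 among the controls. Egf was named after its values were seen.

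**Figure D4:**
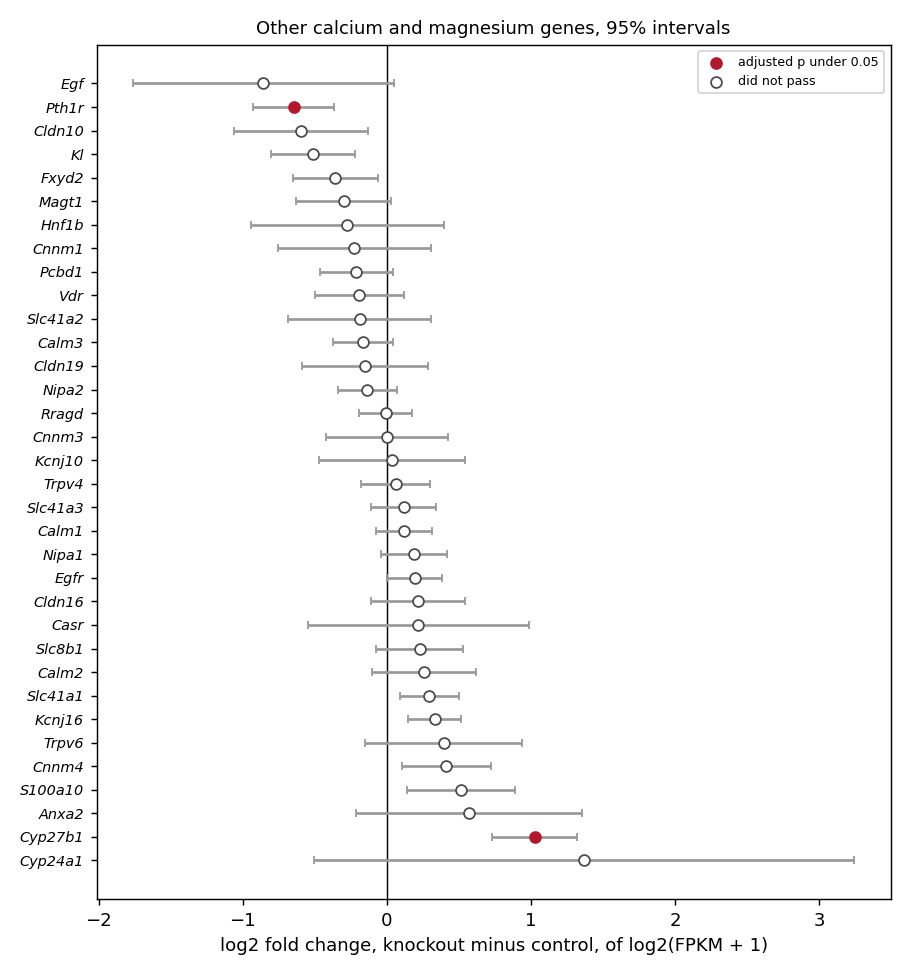
Log2 fold change of log2(FPKM + 1), knockout minus control, with 95% intervals for the 34 tested genes of the lists of other calcium and magnesium genes; filled points passed at an adjusted p under 0.05. Pth1r at -0.65 and Cyp27b1 at 1.02 are the filled points, and most of the other intervals reach 0.

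By the distance over the 5 libraries of log2(FPKM + 1) from the control mean, the genes most like Calb1 among 11793 were Ces1e, a carboxylesterase, Gcgr, the glucagon receptor, and Defb11, a defensin, at distances of 0.0737, 0.174 and 0.246. Ces1e had 22.0 and 33.5 FPKM in knockout 0 and 1, against 60.0, 64.0 and 58.0 in the controls. Gcgr had 6.23 and 10.3 FPKM, against 17.7, 19.1 and 18.8. Among the members, Slc8a1, S100g and Pvalb ranked 34, 40 and 51 in likeness to Calb1, with Trpm6 next at 2080 and Atp2b1 last at 9519. These ranks describe 5 libraries, share the same controls and depend on the level through the pseudocount.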

How the data were processed

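Whole-kidney RNA was extracted with TRIzol and 1 µg per library went into an Illumina mRNA-seq kit, per the labels' protocols. The deposited table holds FPKM computed by the authors, 1 column per library. bcl2fastq and the build mm10 are named in the submitters' processing notes; the aligner, FPKM program, annotation and strandedness are not given in the sources used. Read depth is unknown: 0.139% to 3.43% of the values above 0 were worth less than 1 fragment in a library of 100000000, so whole reads were not recovered. No value column was left unmapped (0).

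FPKM are not counts, so limma 3.58.1 in R 4.3.3 (variance trend, two-sided) was run on log2(FPKM + 1) over the 12640 rows whose FPKM averaged 1 or more, with Benjamini-Hochberg adjustment and a threshold of 0.05; fold changes understate low genes. It was also run on simulated data with a common SD for all genes and both groups. The knockout libraries here were not alike, so that run does not check this design. Exact permutation of 2 against 3 libraries cannot go below 0.1, the value for Calb1, S100g, Slc8a1, Pvalb and Atp2b1. A value of exactly 0 occurred in 87 tested rows and in 0 members. Positions come from GENCODE M21, promoters from RefSeq (GRCm38.p6).

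The members and lists were chosen with earlier results of these data known. Named by rule were all members, and list genes that passed or else the 3 with the lowest adjusted p. So were genes of the first pair of most marker lists and the 3 nearest to the best member. Other list genes, such as Vcam1, Krt20, Scnn1g, Uty, Col3a1 and Tagln, were named after their values were seen. The alternatives were another pseudocount, other filters, TPM, median-of-ratios or quantile scaling, other variance settings, a replicate block, rows listed at 0 left out and each library left out. Python 3.11.15, numpy 2.4.6, pandas 2.3.3, scipy 1.17.1 and matplotlib 3.10.9 were used.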

Additional observations from a re-analysis of the deposited data

How the results depend on the processing

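Calb1 was lower than the controls under all 15 alternatives (log2 fold change -1.39 to -0.83) and passed in 9. S100g, Slc8a1, Pvalb, Atp2b1, Cnnm2 and Trpm6 also kept their sign in all alternatives run. The sign of Atp2b4 turned after quantile normalization (-0.068). With 1 library left out Atp2b4 ranged from -0.22 to 0.24, turning when control 1 or knockout 1 was missing, Trpm7 from -0.12 to 0.26 and Trpv5 from -0.44 to 0.038, both turning when knockout 1 was missing. The members called numbered 2 with a pseudocount of 0.1, at a mean FPKM of at least 5, with median-of-ratios scaling and with rows listed at 0 left out (Calb1 and S100g each time), and 0 with no filter, after quantile normalization and with the replicate block. Leaving out 1 library gave 0 to 4 members, a median over the members of -0.31 to -0.19, 36 to 2599 calls over all rows and 0 to 10 other pathway genes. The median was -0.24 with a pseudocount of 0.1, -0.15 after rescaling to TPM and -0.29 after quantile normalization. Over all rows 482 passed with no filter and 28 with the block, against 802. The other pathway genes called, 2 in the main test, were 3 after rescaling to TPM (Kcnj16 besides Cyp27b1 and Pth1r), 1 with no filter, 1 at a mean FPKM of at least 5 and 0 with the block. The causes were not tested. In the block fit control 2 has no partner and adds nothing. The numbers do not pair the libraries by any label, and deviations of same-numbered libraries correlated at 0.0863 (number 0) and 0.00236 (number 1) across genes. The effect of the unknown depth on these values was not measured.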

Other observations

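Markers of cell types outside the distal nephron were mostly unlike between the knockout libraries. Fibroblast markers summed to 132.5 and 78.6 FPKM in knockout 0 and 1, against 48.6 to 72.6 in the controls. In knockout 0, 4 of these 5 lay above every control, against 34.2% of all tested rows, and Col3a1 was the most abundant (46.6 FPKM). Pdgfra lay below every control there, at 4.05 FPKM against 5.32 to 5.61. Smooth muscle markers summed to 114.2 and 51.5 FPKM, against 40.6 to 59.6. In knockout 0, 3 of these 5 lay above every control, against 34.2% of all tested rows, and Tagln was the most abundant (59.9 FPKM). Myh11 lay below every control there, at 3.43 FPKM against 4.545 to 6.898. Endothelial markers summed to 91.3 and 102.0 FPKM, against 87.9 to 90.5. Pecam1 and Cdh5 lay above every control in both knockout libraries. Emcn, the most abundant at 44.6 and 50.8 FPKM against 47.8 to 52.0, overlapped the controls, as did Kdr and Flt1. Erythrocyte genes summed to 131.6 and 8.33 FPKM, against 19.4 to 43.9, high in knockout 0 and low in knockout 1. Thick ascending limb markers, led by Slc12a1, summed to 203.4 and 443.9 FPKM, against 289.0 to 408.4, with Umod left out because it was listed at 0 in every control. The 4 summed proximal tubule markers came to 603.1 and 382.2 FPKM, against 797.0 to 1109, and did not move alike. Slc7a13 (174.6 and 1.83 FPKM, against 305.9 to 630.8) and Slc22a6 lay below every control in both knockout libraries. Slc5a2 overlapped the controls, and Slc5a12 lay above every control in knockout 1 (112.3 FPKM, against 61.4 to 107.9). Lrp2 and Slc34a1 were listed at 0 in every library. None of these lists had a member that passed by limma apart from Umod, whose zeros give no direction. At an unadjusted p under 0.05 the fibroblast list had 2 higher, the smooth muscle list 1 higher and the endothelial list 2 higher. The proximal tubule list had 2 lower, and the erythrocyte list 0. Over all 12640 tested rows 1578 were higher and 2102 lower at that p.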
